A study of Homo sapiens with 18 samples.

Results

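The human myeloma line MM1S was compared with and without an IKZF1 knockout, in 2 knockout libraries and 2 empty vector libraries of a series of 18, and the change was followed over the 14571 genes with enough counts to be tested, of 28395 in the count table. The empty vector cells carried the control vector, whose count columns also name BFP. The knockout cells carried a CRISPR-Cas9 construct against IKZF1 whose guide RNA is switched on by doxycycline. Both groups received doxycycline at 1 µg/mL and were cultured for 72 hours, so the drug is common to both. Live cells were then sorted by light scatter and mRNA libraries were prepared with a TruSeq RNA kit and sequenced. The series title names CD38 and daratumumab, the antibody against CD38, and the question here is which transcripts differ once IKZF1 has been targeted. The same comparison in the lines H929 and OPM2, each 2 libraries against 2 with the same doxycycline treatment, serves below only to show where MM1S differs. The remaining libraries were OPM2 cells with an IKZF3 knockout and the same doxycycline, OPM2 cells given the drug lenalidomide, and untreated OPM2 cells. The labels give no doxycycline for the last 2 groups. These libraries entered the shared fit and its estimate of the spread, and are not described. Whether the libraries of a group came from separate cultures or clones is stated in no source used here, so p-values measure only the spread between these libraries, which may be technical. The knockout columns could be matched to their group but not to a numbered sample, and they are called knockout libraries a and b.

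IKZF1 encodes Ikaros, a zinc finger transcription factor of lymphoid cells that binds DNA as dimers with its relatives, such as Aiolos (IKZF3), and recruits the NuRD chromatin remodelling and deacetylase complex. Immunomodulatory drugs such as lenalidomide make the cereblon ubiquitin ligase degrade Ikaros and Aiolos, on which many myeloma cells depend. MM1S is a plasma cell tumour line with a translocation that places the MAF transcription factor gene under the immunoglobulin heavy chain locus, and it secretes a lambda light chain. Plasma cells devote much of their transcription to antibody secretion, which loads the endoplasmic reticulum (ER) and draws on the unfolded protein response.

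The 4 libraries held 16027033 and 14219267 gene counts (empty vector replicates 1 and 2) and 14707076 and 12020380 (knockout a and b). A difference of more than 2-fold between the libraries of a pair was found for 19 genes in the empty vector and 131 genes in the knockout, at a pseudocount of 0.5 CPM, read counts scaled to a fixed library total. In OPM2 empty vector the same count was 1013 genes, and since all 18 libraries shared 1 estimate of the spread, that pair bears on every call below. The MM1S label fits its light chain: IGLV2-14, a lambda variable gene, stood at 2296 and 2381 CPM in the empty vector and 2501 and 2225 CPM in the knockout, against means of 1.53 and 0.0735 CPM in the empty vector cells of H929 and OPM2. Summed plasma cell markers were 7947 and 7825 CPM in the empty vector and 12830 and 13133 CPM in the knockout, whereas MS4A1 of B cells, CD3D and CD3G of T cells, LYZ and MPO of myeloid cells and COL3A1 and CDH5 of stroma were at 0 in all 4 libraries. T and NK cell markers summed to 493 and 492 CPM against 647 and 634 CPM; CD28, a costimulatory receptor gene also expressed by myeloma cells, made up 488 and 488 CPM against 642 and 630 CPM of this, and 9 of the 12 markers were under 1 CPM in all 4 libraries. Myeloid markers summed to 37.0 and 37.5 CPM against 87.7 and 82.5 CPM, most of it the lysosomal protein gene CD68, and CD14, CD163 and S100A9 also rose, to at most 3.81 CPM. Their part in the results was not tested.

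The targeted gene was not lower. IKZF1 (chromosome 7) stood at 179 and 185 CPM in the empty vector libraries and at 312 and 333 CPM in the knockout libraries, a log2 fold change of 0.83 (SE 0.23, n = 2 and 2, edgeR's quasi-likelihood test, adjusted p = 0.0159). Both knockout libraries lay above both controls. A count over the whole gene does not tell edited from unedited transcripts, so it does not check the labels, and Ikaros protein was not measured in the files used here. The call was lost when any 1 of the 4 libraries was left out (log2 0.78 to 0.87, adjusted p of 0.0541 to 0.103, edgeR). IKZF3 was at 97.7 and 112 CPM against 160 and 176 CPM (log2 0.68, SE 0.17), and IKZF2, which encodes Helios, at 2.64 and 2.64 CPM against 3.94 and 5.71 CPM (log2 0.86, SE 0.28). Both rose, and IKZF4 and IKZF5 were not called; of these 3 calls, 0 to 2 held when 1 MM1S library was left out.

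Of the genes tested, 4114 (28.2%) were called, 2273 (15.6%) higher and 1841 (12.6%) lower in the knockout, where edgeR's quasi-likelihood test gave a Benjamini-Hochberg adjusted p under 0.05, which is what "called", "rose" and "fell" mean here. A change of more than 2-fold was called upward for 1150 genes (7.89%) and downward for 702 (4.82%). For 10617 genes (72.9%) the libraries of the groups did not overlap. Across all genes the median log2 fold change was 0.00. The count of 4114 calls was 6314 without OPM2 empty vector replicate 1 and 7032 when the 4 MM1S libraries were fitted alone. It was 2322 and 2438 without empty vector replicate 1 or 2, and 2849 and 2485 without knockout a or b.

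**Figure D1:**
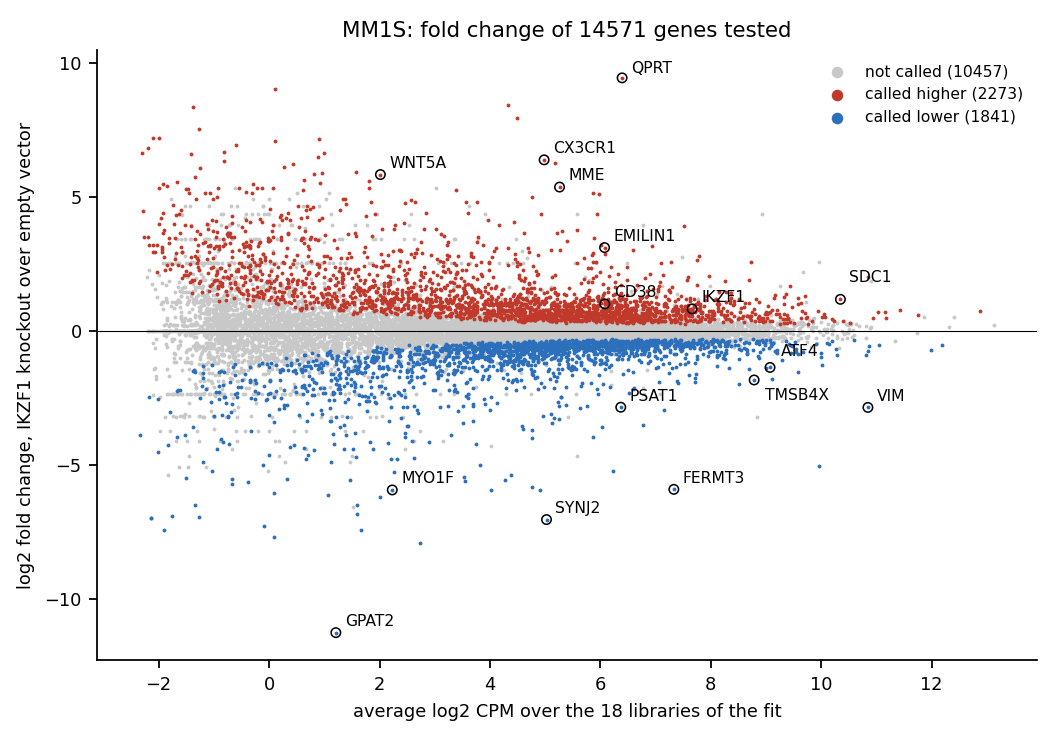
Log2 fold change of the IKZF1 knockout over the empty vector (vertical axis) against average log2 CPM over the 18 libraries (horizontal axis), with 1 point for each of 14571 genes. Red points are the 2273 genes called higher and blue points the 1841 called lower, and the named genes are ringed; changes beyond 5 log2 units occur in both directions.

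Some genes went from near silence to clear expression. QPRT, which makes the nicotinate precursor of NAD from quinolinate, had 1 count in each empty vector library and 634 and 658 counts in the knockout libraries. The ratio of the groups was 776-fold, with a 95% counting interval of 214 to 6411. MME, which encodes the surface peptidase CD10, stood at 5.82 and 7.65 CPM in the empty vector and 251 and 306 CPM in the knockout (log2 5.37, SE 0.33, adjusted p = 6.9e-08 in edgeR). On the chemokine receptor gene CX3CR1 the values were 1.94 and 1.65 CPM against 179 and 124 CPM (log2 6.39, SE 0.42). WNT5A, a secreted Wnt ligand, moved from 0.881 and 0.264 CPM to 38.1 and 29.9 CPM (log2 5.84, SE 0.34). These genes were taken from the 15 strongest rises, where no overlap between the groups was a condition of choice. In all, 24 called genes (0.165% of those tested) averaged under 1 CPM in the empty vector and at least 10 CPM in the knockout. Chosen from these after their values were seen, FLRT3 (0.118 and 0.264 CPM against 17.4 and 17.3 CPM) encodes an adhesion protein, PTK2 (0.470 and 0.528 CPM against 14.1 and 14.4 CPM) the focal adhesion kinase, and ABCG2 (0.823 and 1.12 CPM against 15.5 and 16.2 CPM) a drug efflux pump.

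Other genes went the opposite way. GPAT2, a mitochondrial acyltransferase gene, was at 20.5 and 16.8 CPM in the empty vector libraries and had no count in either knockout library, which is at least 168-fold lower, with a floor of 3 counts over the group. SYNJ2, a phosphoinositide phosphatase gene, fell from 27.3 and 23.7 CPM to 0.0679 and 0.331 CPM (log2 -7.03, SE 0.49). LILRA2, a leukocyte immunoglobulin-like receptor gene, fell from 133 and 130 CPM to 3.40 and 0.745 CPM (log2 -5.92, SE 0.49). Between knockout a and b the LILRA2 level still differed by more than 2-fold, which is small beside the fall in both. Of the 13 called genes (0.0892%) that averaged at least 10 CPM in the empty vector and under 1 CPM in the knockout, 3 chosen after their values were seen were VAV2, a guanine nucleotide exchange factor (21.6 and 21.7 CPM against 0.747 and 0.580 CPM), ADARB1, an RNA-editing deaminase (21.7 and 20.4 CPM against 0.543 and 0.0828 CPM), and CD33, a sialic acid receptor (13.2 and 13.2 CPM against 0.475 and 0.166 CPM). The plot of levels by library shows how closely the members of each pair lay.

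**Figure D2:**
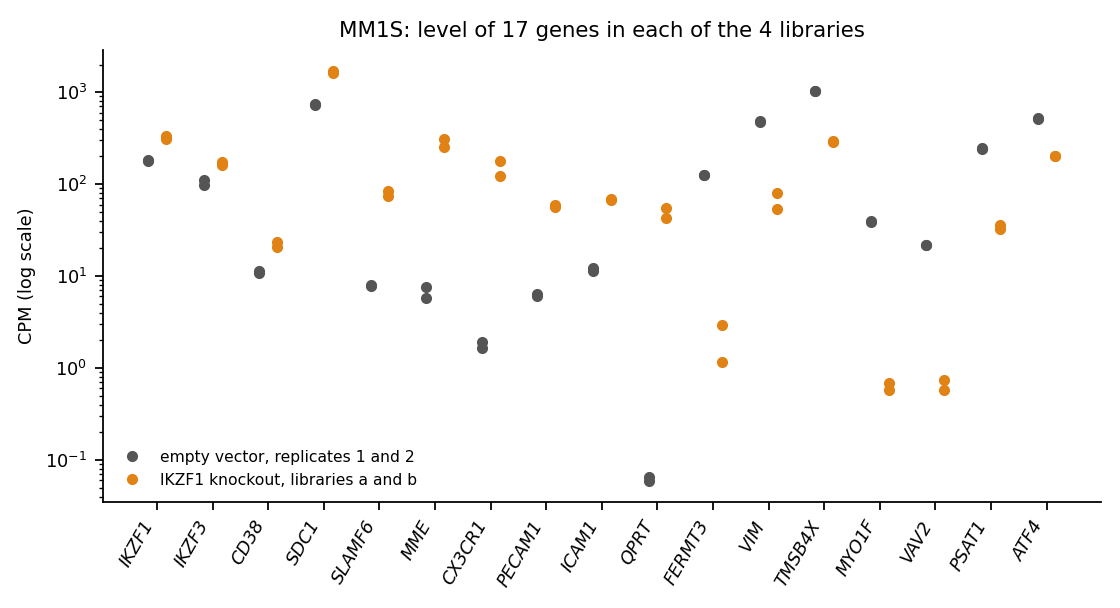
CPM on a log axis for 17 genes in each of the 4 MM1S libraries; grey points are empty vector replicates 1 and 2, and orange points knockout libraries a and b. QPRT lies at about 0.06 CPM in the controls and at 43.1 and 54.5 CPM in the knockout, and FERMT3 moves from 127 and 126 CPM to 2.92 and 1.16 CPM.

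CD38, the ectoenzyme that cleaves NAD and is the target of daratumumab, roughly doubled. It stood at 10.8 and 11.2 CPM in the empty vector libraries and at 23.4 and 20.9 CPM in the knockout libraries, a log2 fold change of 1.01 (SE 0.22, adjusted p = 0.0036 in edgeR). The groups did not overlap, and the call held when any 1 MM1S library was left out. In the authors' length-scaled table CD38 was at log2 FPKM 2.81 in the merged empty vector and 3.92 and 3.76 in the knockout samples, well below SDC1, which encodes syndecan-1 (CD138), at 7.89 against 9.14 and 9.01. The 40 expressed neighbours of CD38 on chromosome 4 had a median log2 fold change of 0.19. In H929 the log2 change of CD38 was 1.90 (SE 0.21) and in OPM2 1.495 (SE 0.21), and the tests of the difference from MM1S gave adjusted p of 0.0595 and 0.278 (edgeR).

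Among 21 surface proteins used as antibody or cell therapy targets in myeloma, 11 rose and 1 fell. SDC1 rose from 737 and 734 CPM to 1714 and 1627 CPM (log2 1.18, SE 0.12). SLAMF7, the target of elotuzumab, rose from 361 and 362 CPM to 657 and 683 CPM (log2 0.89, SE 0.21). SLAMF6, a receptor of the same family, rose from 7.87 and 7.91 CPM to 85 and 74.3 CPM (log2 3.33, SE 0.27). ICAM1, the ligand of the LFA-1 integrin, rose from 12.2 and 11.2 CPM to 68.6 and 67.0 CPM (log2 2.53, SE 0.20), and NCAM1 (CD56), an adhesion receptor of many myelomas, from 2.06 and 3.10 CPM to 14.4 and 15.9 CPM. CD44, the hyaluronan receptor, was the member that fell (1115 and 1137 CPM against 645 and 636 CPM, log2 -0.81, SE 0.20). TNFRSF17 (BCMA), GPRC5D and FCRL5 were not called, with log2 values of 0.16, 0.42 and -0.28. The number that rose was 8 or 9 when 1 MM1S library was left out. Of the complement regulators at the cell surface, CD59 rose from 511 and 486 CPM to 1338 and 1226 CPM and CD46 from 305 and 306 CPM to 484 and 473 CPM, while CD55 fell from 19.5 and 19.2 CPM to 6.93 and 7.53 CPM. The call of CD46 was lost when any 1 MM1S library was left out (adjusted p of 0.0927 to 0.131, edgeR). In bulk RNA, a change in each cell and a change in the share of cells cannot be told apart.

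In the plasma cell and ER lists every member called in the fit of all 18 libraries was higher, and many members were not called. With the 4 MM1S libraries fitted alone, 13 plasma cell genes rose and 2 fell, and 23 ER genes rose and 3 fell. Of 21 plasma cell genes tested, 9 rose, none fell and 12 were not called, with a median log2 fold change of 0.39. XBP1, the transcription factor that builds the secretory apparatus, rose from 728 and 688 CPM to 1304 and 1156 CPM (log2 0.80, SE 0.09), and JCHAIN, which joins polymeric immunoglobulin, from 4223 and 4112 CPM to 6703 and 7215 CPM (log2 0.74, SE 0.10). CD79B, counted in this list but a signalling chain of the B cell receptor, rose from 4.05 and 4.22 CPM to 36.9 and 34.0 CPM (log2 3.10, SE 0.32). MZB1, DERL3, POU2AF1 and LAX1 were the remaining members that rose beside SDC1 and SLAMF7, by 0.68 to 1.08 on the log2 scale. IRF4 and PRDM1, the factors that specify plasma cells, were not called (log2 -0.24 and 0.36).

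The ER list of chaperones, translocation and degradation factors and stress sensors had 18 of 34 members higher, none lower and 16 not called. The median log2 fold change was 0.35. The changes were modest in size. HSPA5 (BiP), the ER lumen's main HSP70 chaperone, rose from 1168 and 1168 CPM to 1713 and 1634 CPM (log2 0.52, SE 0.10), SYVN1, the ligase of ER-associated degradation, from 160 and 165 CPM to 267 and 274 CPM (log2 0.74, SE 0.10), and the sensor ATF6 from 144 and 139 CPM to 265 and 232 CPM (log2 0.81, SE 0.11). DNAJC3, DNAJB9, EIF2AK3 (PERK), PDIA3 and HYOU1 also rose. CALR, CANX and MANF were not called, at log2 0.21, 0.06 and -0.11. The 18 members became 9 without either empty vector replicate, 10 without knockout a and 11 without knockout b, and 13 with upper quartile scaling, whereas 23 rose and 2 fell without OPM2 empty vector replicate 1. SSR3 lies in a stretch of chromosome 3 described further on.

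The promoters of these genes (RefSeq, GRCh38.p14) were searched for the ER stress response element in the form CCAAT, 9 bases of any kind, CCACG, the arrangement read by ATF6 with NF-Y. It was sought on both strands in the 250 bases before each RefSeq start and occurred in 0.0916% of the 27305 genes with a promoter in the table. Of 16 ER genes that rose and had a promoter in the table, 3 held it (HSPA5, HSP90B1 and PDIA6), and so did 3 of 15 that were not called, CALR among them. The element is shown in capitals on the gene's strand, 5′ to 3′, in GRCh38.p14, for those that rose and for CALR as a match that did not move with them. The matches in HSP90B1 and CALR read the element on the opposite strand.
HSPA5 chr9:125241386-125241414, minus strand: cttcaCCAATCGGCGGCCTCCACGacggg
HSP90B1 chr12:103930316-103930344, plus strand: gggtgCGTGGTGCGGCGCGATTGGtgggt
PDIA6 chr2:10812848-10812876, minus strand: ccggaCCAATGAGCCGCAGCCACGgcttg
CALR chr19:12938379-12938407, plus strand: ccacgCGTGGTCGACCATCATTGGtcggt
A match is a run of letters and shows no binding.

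The amino acid response moved the other way. ATF4, the transcription factor whose translation rises when amino acids or ER capacity run short, fell from 526 and 510 CPM to 204 and 200 CPM (log2 -1.36, SE 0.16, adjusted p = 2.8e-05 in edgeR). Of 21 genes of the ATF4 response tested, 12 fell and 2 rose, with a median log2 fold change of -0.71. CHAC1, which degrades glutathione, fell from 13.7 and 13.3 CPM to 3.53 and 2.24 CPM (log2 -2.21, SE 0.28), and the pseudokinase TRIB3 from 84.0 and 81.3 CPM to 19.8 and 22.4 CPM (log2 -1.97, SE 0.16). TRIB3 lies in a stretch of chromosome 20 where neighbouring genes fell too (median log2 -1.08 over its 24 neighbours), whereas the neighbours of ATF4 had a median of 0.01. CEBPB, SESN2, DDIT3 (CHOP) and EIF4EBP1 fell by 1.18 to 2.10 on the log2 scale. KLHL24 and DDIT4 were the members that rose.

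Enzymes that make serine, glycine, asparagine and proline and carry one-carbon units had 15 of 20 members lower, 2 higher and a median log2 fold change of -1.15. PHGDH and PSAT1 catalyse the first steps of serine synthesis. PSAT1 fell from 242 and 247 CPM to 35.7 and 32.5 CPM (log2 -2.84, SE 0.21) and PHGDH from 103 and 102 CPM to 17.7 and 19.1 CPM (log2 -2.48, SE 0.22). Asparagine synthetase, ASNS, fell from 149 and 150 CPM to 45.1 and 37.1 CPM (log2 -1.86, SE 0.17). SHMT2, which passes the one-carbon unit of serine to folate in mitochondria, fell from 462 and 453 CPM to 176 and 170 CPM (log2 -1.40, SE 0.16). These genes were named for their small p, so the gap between their groups was part of the choice. MTHFD2L, a mitochondrial folate enzyme gene, was among the members that rose (log2 0.52, SE 0.19). Between 14 and 15 members fell when any 1 MM1S library was left out, and none then rose.

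Amino acid importers and the enzymes that charge transfer RNA shifted alike. Of 15 amino acid transporters, 8 fell and 3 rose. The glycine carrier SLC6A9 fell from 35.6 and 40.8 CPM to 4.55 and 4.39 CPM (log2 -3.09, SE 0.18). SLC7A5 and SLC3A2, which together form the large neutral amino acid exchanger, fell from 476 and 495 CPM to 198 and 208 CPM and from 268 and 261 CPM to 148 and 130 CPM. SLC43A2, a carrier of neutral amino acids that needs no sodium, rose instead, from 15.2 and 12.8 CPM to 103 and 112 CPM (log2 2.94, SE 0.20). Of 22 cytosolic aminoacyl-tRNA synthetases and scaffold proteins, 13 fell and none rose, with a median log2 fold change of -0.48. The glycine enzyme GARS fell furthest, from 332 and 353 CPM to 135 and 128 CPM (log2 -1.38, SE 0.11), and QARS, DARS and KARS were not called (log2 0.24, 0.10 and -0.05).

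The composite element of ATF4 and C/EBP factors was sought as TGATGNAA, on both strands of the same 250 bases, where 3.89% of genes hold it. Among members that fell and had a promoter in the table it was found in 4 of 11 of the ATF4 response, 3 of 10 of the serine and one-carbon enzymes, 1 of 7 transporters and 3 of 11 synthetases. Among members not called the counts were 1 of 6, 1 of 2, 0 of 4 and 0 of 7. The sequences printed below, again 5′ to 3′ on the gene's strand, were chosen to show 1 or 2 members of each list, with the element in capitals; CHAC1 and AARS1 (AARS in the count table) read it on the opposite strand.
CHAC1 chr15:40953251-40953280, plus strand: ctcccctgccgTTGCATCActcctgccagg
CEBPG chr19:33374060-33374089, plus strand: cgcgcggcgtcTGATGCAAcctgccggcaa
ASNS chr7:97872458-97872487, minus strand: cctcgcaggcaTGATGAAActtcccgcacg
MTHFD1L chr6:150866346-150866375, plus strand: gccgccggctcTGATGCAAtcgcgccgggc
SLC1A5 chr19:46784893-46784922, minus strand: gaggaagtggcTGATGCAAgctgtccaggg
AARS1 chr16:70289675-70289704, minus strand: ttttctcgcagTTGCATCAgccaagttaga
These 6 genes were taken from the members that fell, and their falls were 0.71 (CEBPG) to 2.21 (CHAC1) on the log2 scale. FGF21 and GOT1 of the same lists also hold the element and were not called. HERPUD1, IFIT3, MX1 and HLA-G of other lists hold it and rose.

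**Figure D3:**
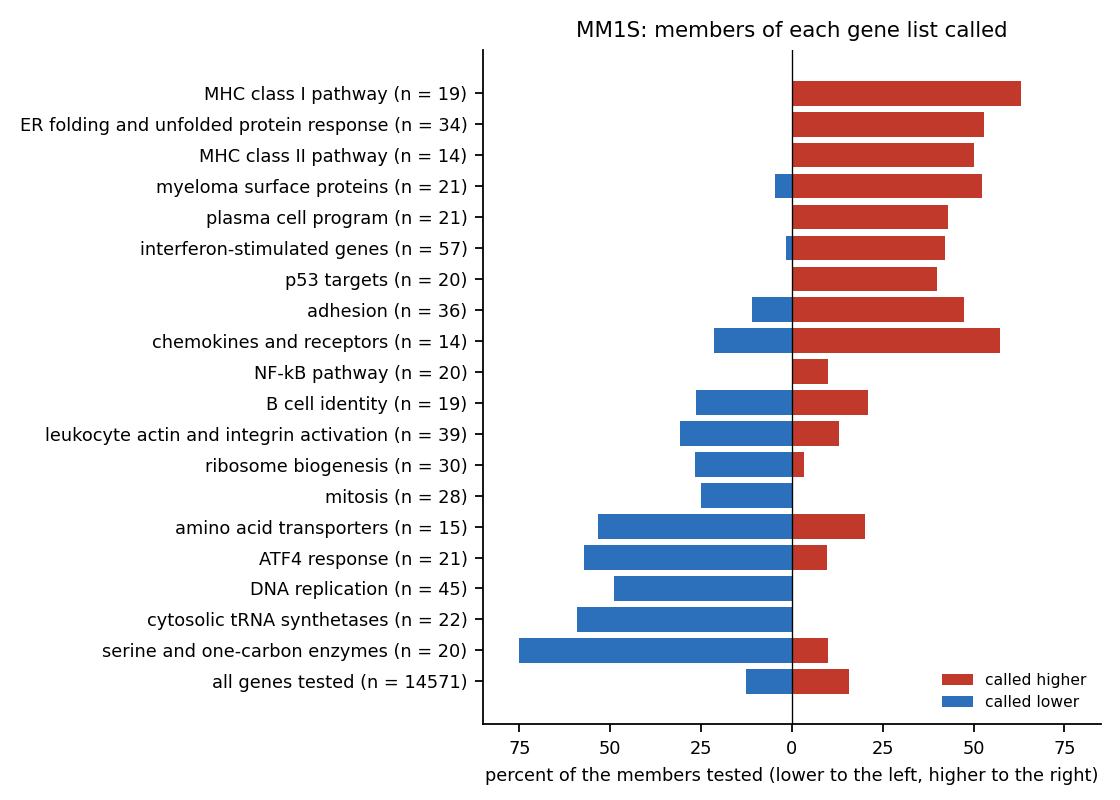
Percent of the tested members of each gene list called higher (red, to the right) or lower (blue, to the left) in the MM1S knockout, with the number tested in brackets and all 14571 genes tested in the lowest bar. The serine and one-carbon list reaches 75% lower and the MHC class I list 63.2% higher, against 12.6% and 15.6% of all genes.

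Genes of DNA replication were lower. Of 45 tested, 22 fell and none rose, with a median log2 fold change of -0.40. PCNA, the sliding clamp of the replicative polymerases, fell from 325 and 327 CPM to 105 and 90.7 CPM (log2 -1.73, SE 0.13) but lies in the same stretch of chromosome 20 as TRIB3 (neighbours' median -0.87). GINS1, a subunit of the replicative helicase outside that stretch, fell from 77.6 and 84.6 CPM to 31.0 and 29.5 CPM (log2 -1.42, SE 0.13). RRM2, the small subunit of ribonucleotide reductase, fell from 1260 and 1292 CPM to 769 and 666 CPM (log2 -0.83, SE 0.14), and MCM2, MCM3, MCM4, MCM6 and MCM7 of the helicase ring by 0.33 to 0.72. The count of 22 was 6 without knockout b and 18 without knockout a, 8 without empty vector replicate 1 and 10 without replicate 2. Of 28 mitosis genes 7 fell, AURKA, PLK1 and CCNB1 among them, and this count was 0 without knockout b, 4 without knockout a, and 1 and 2 without empty vector replicates 1 and 2.

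At the entry to the cycle, the G1 regulators had 8 of 27 members lower and 2 higher. CCND2, the D-type cyclin that MAF drives in myeloma, fell from 891 and 921 CPM to 549 and 596 CPM (log2 -0.66, SE 0.12), although MAF itself rose from 489 and 516 CPM to 951 and 1172 CPM (log2 1.08, SE 0.15). E2F2 fell from 384 and 401 CPM to 176 and 166 CPM and CCNE1 from 55.9 and 56.3 CPM to 29.2 and 28.1 CPM. CDKN2B and CDKN2A, inhibitors of the D-cyclin kinases, rose from under 0.3 CPM in each control to between 1.83 and 5.55 CPM in the knockout, and their neighbour MTAP, a methionine salvage enzyme, fell from 46.6 and 43.3 CPM to 9.98 and 10.3 CPM (log2 -2.15). Fewer G1 regulators fell, 3 to 6, when 1 MM1S library was left out. MYC was at 284 and 302 CPM against 314 and 318 CPM and was not called (log2 0.11, adjusted p = 0.65 in edgeR). It lies in a stretch of chromosome 8, described further on, whose expressed genes had a median log2 fold change of -0.83. Of 30 ribosome biogenesis genes, 8 fell and 1 rose. Of 32 glycolysis and hypoxia genes, 6 fell (18.75%, against 12.6% of all genes tested) and 4 rose (12.5%, against 15.6%). LDHA fell furthest (1501 and 1462 CPM against 833 and 769 CPM), and PDK1 rose furthest (138 and 142 CPM against 434 and 478 CPM). When 1 MM1S library was left out, 2 to 8 of the ribosome genes and 1 to 3 of the glycolysis genes fell.

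Interferon-stimulated genes were partly higher. Of 57 tested, 24 rose and 1 fell, with a median log2 fold change of 0.62. The antiviral GTPase MX1 rose from 17.6 and 20.2 CPM to 79.3 and 62.2 CPM (log2 1.91, SE 0.48), UBA7, the activating enzyme of the ISG15 conjugation pathway, from 6.17 and 6.79 CPM to 40.7 and 42.7 CPM (log2 2.69, SE 0.27), and the secreted glycoprotein gene LGALS3BP from 0.235 and 0.264 CPM to 7.74 and 11.9 CPM (log2 5.25, SE 0.56). ISG15, IFI27, IFI44L, OAS1 and USP18 were not called. IFIH1 (MDA5), a sensor of double-stranded RNA, was the member that fell, from 115 and 114 CPM to 66.9 and 60.6 CPM (log2 -0.84, SE 0.28), and its call was lost without any 1 MM1S library and without OPM2 empty vector replicate 1 (adjusted p of 0.0892 to 0.188, edgeR). Among the signalling genes STAT2 (81.3 and 89.4 CPM against 171 and 197 CPM), IRF9, IRF1 and IFNAR2 rose. The 24 members became 13 to 16 when any 1 MM1S library was left out.

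The interferon element, GAAA, 2 bases of any kind, GAAA, was sought on both strands in the same way and is held by 3.71% of all genes. It occurred in 15 of 20 interferon-stimulated genes that rose and 13 of 25 that were not called. The following sequences show it in 3 genes that rose and in IFI27, which had 2 to 6 counts in each library; capitals mark the element, which MX1 and RSAD2 read on the opposite strand.
MX1 chr21:41431844-41431873, plus strand: ggtcactctgTTTCTCTTTCcgtgaataaa
RSAD2 chr2:6877622-6877651, plus strand: ctgtttcaacTTTCAGTTTCacatgtggaa
PARP14 chr3:122680800-122680829, plus strand: tccaggaaacGAAAGCGAAAgagtcaaagt
IFI27 chr14:94110631-94110660, plus strand: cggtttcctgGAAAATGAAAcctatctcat

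Antigen presentation genes rose without exception among those called. In the MHC class I pathway 12 of 19 rose. HLA-B was at 650 and 610 CPM against 1270 and 1308 CPM (log2 1.03, SE 0.20), and the light chain gene B2M at 1715 and 1618 CPM against 2767 and 2685 CPM (log2 0.71, SE 0.15). NLRC5, the activator of class I transcription, rose from 6.23 and 6.73 CPM to 14.7 and 15.4 CPM, and the peptide transporter genes TAP1 and TAP2 were not called (log2 0.15 and -0.14). In the class II pathway 7 of 14 rose, HLA-DRA from 299 and 290 CPM to 632 and 563 CPM and HLA-DRB1 from 30.3 and 27.5 CPM to 69.9 and 72.4 CPM, while CIITA, the class II activator, was not called (log2 0.21). HLA genes are close copies of each other and differ between people, so the counting can split or lose their reads and these values are uncertain. Leaving out 1 library gave 7 to 9 class I and 3 to 5 class II members, 3 without empty vector replicate 2.

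Several genes of the leukocyte cytoskeleton fell far. FERMT3 (kindlin-3), which activates integrins in blood cells, fell from 127 and 126 CPM to 2.92 and 1.16 CPM (log2 -5.91, SE 0.26, adjusted p = 6.8e-09 in edgeR). MYO1F, a leukocyte myosin, fell from 38.7 and 39.4 CPM to 0.679 and 0.580 CPM (log2 -5.93, SE 0.35), and the intermediate filament gene VIM from 478 and 491 CPM to 54.1 and 80.5 CPM (log2 -2.85, SE 0.21). TMSB4X, which holds actin monomers, fell from 1038 and 1027 CPM to 290 and 293 CPM (log2 -1.83, SE 0.16). The list did not move as a whole: of 39 tested 12 fell, 5 rose and the median log2 fold change was -0.18. CORO1B, a coronin, and EVL, an Ena/VASP protein, rose from 6.70 and 6.99 CPM to 55.5 and 57.0 CPM and from 1.47 and 1.91 CPM to 15.8 and 18.8 CPM. LCP1, RAC2 and TLN1 were not called (log2 0.00, 0.13 and -0.07). Between 7 and 9 members fell, and 3 rose, when 1 MM1S library was left out.

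Among adhesion molecules, chemokines and chemokine receptors, more genes rose than fell. Of 36 adhesion genes 17 rose, 4 fell and 15 were not called. The integrin subunit gene ITGA8 rose from 55.3 and 56.9 CPM to 323 and 345 CPM (log2 2.57, SE 0.24), the tetraspanin CD9 from 153 and 146 CPM to 542 and 524 CPM (log2 1.83, SE 0.18), and PECAM1 (CD31), a ligand of CD38, from 6.35 and 6.13 CPM to 56.3 and 59.6 CPM (log2 3.21, SE 0.19). PECAM1 is also on the list of stromal and endothelial markers, whose summed level was 7.23 and 6.86 CPM against 58.4 and 61.9 CPM; nearly all of it was PECAM1, with COL1A1 at 0.176 and 0.132 against 1.15 and 1.82 CPM, and CDH5 and KDR were at 0. ITGB5, ITGAL and ITGA6 rose by 1.14 to 1.44 on the log2 scale. Without 1 MM1S library, 11 to 13 adhesion genes rose and 0 to 2 fell. Of 14 chemokine and receptor genes tested, 8 rose and 3 fell. CCR2 rose from 16.6 and 12.8 CPM to 88.1 and 73.5 CPM and CXCR3 from 42.2 and 41.6 CPM to 125 and 130 CPM. The ligands CCL3, CCL4 and CCL5 were the members that fell, CCL3 from 1547 and 1585 CPM to 541 and 535 CPM (log2 -1.54, SE 0.30). The call of CCL4 was lost in 7 alternative runs, and fewer members of this list rose when 1 MM1S library was left out. CXCR4, the receptor that holds plasma cells in bone marrow, was not called (log2 -0.11).

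Smaller lists gave mixed results. In the NuRD complex, which Ikaros recruits, 5 of 14 subunits fell (35.7%, against 12.6% of all genes) and none rose. With the 4 MM1S libraries fitted alone, 8 fell and 3 rose. The remodeller CHD3 fell from 23.4 and 22.2 CPM to 4.14 and 1.90 CPM (log2 -2.88, SE 0.24). CDK2AP1, MBD2, RBBP7 and MTA2 fell too, at log2 -1.47 to -0.30. Without 1 MM1S library, 3 to 5 fell. CHD4, the other main remodeller, was not called (log2 0.27). In the B cell list BTK fell from 21.2 and 20.8 CPM to 3.40 and 3.48 CPM, with SPIB, FCRLA, PTPRC and SYK, while BLNK, ID3, TCF3 and BCL11A rose, 4 against 5 of 19; 1 to 3 rose when 1 library was left out. Of 20 p53 genes 8 rose and none fell, MDM2 and BTG2 among them, but CDKN1A was not called (log2 0.20), and 4 to 7 rose when 1 library was left out. PMAIP1 (NOXA), an ATF4 and p53 target that promotes cell death, fell from 25.7 and 24.2 CPM to 8.28 and 6.37 CPM (log2 -1.76, SE 0.32). CFLAR, CASP10 and TNFSF10 (TRAIL) were among the 6 of 26 death pathway genes that rose (23.1%, against 15.6% of all genes). Fewer death pathway genes rose when any 1 library was left out. TNFSF10 lies in the chromosome 3 stretch described further on, and its call was lost in 6 alternative runs. Of 16 NAD genes 6 rose, CD38, QPRT and the kinase gene NMRK1 among them. The 3 that fell included NAMPT (124 and 130 CPM against 96.4 and 79.1 CPM), whose call was lost in 7 alternative runs. Fewer NAD genes rose, and fewer fell, when 1 library was left out. In the NF-kB list 2 of 20 rose (10%, against 15.6% of all genes), CD40 and TNIP1, and none fell. With the 4 MM1S libraries fitted alone, 6 NF-kB genes rose and 6 fell, and 10 p53 genes rose and 2 fell. Of 37 Wnt, BMP and Notch genes 10 rose (27.0%, against 15.6% of all genes) and 5 fell (13.5%, against 12.6%). Fewer of them rose when 1 library was left out. ROR2, a receptor of WNT5A, rose from 16.7 and 15 CPM to 54.0 and 56.5 CPM, and by DKK1, a Wnt inhibitor secreted by myeloma cells, from 6.70 and 5.67 CPM to 17.5 and 13.6 CPM.

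The MM1S changes overlapped only in part with those of the other lines. H929 had 862 genes higher (5.92%) and 670 lower (4.6%), and OPM2 had 2365 (16.2%) and 2918 (20%). Of the genes that rose in MM1S, 315 also rose in H929, which is 13.9% of the MM1S and 36.5% of the H929 list, and 634 in OPM2 (27.9% and 26.8%). Of those that fell, 151 fell in H929 (8.20% and 22.5%) and 553 in OPM2 (30.04% and 18.95%). In all 3 lines 157 genes rose and 49 fell. Called in the opposite direction were 208 MM1S genes in H929 and 314 in OPM2. In H929, 136 of the 670 lower genes rose in MM1S and 72 of the 862 higher genes fell. In OPM2, 163 of the 2918 lower genes rose in MM1S and 151 of the 2365 higher genes fell. Over all genes tested, 15.6% rose and 12.6% fell in MM1S. The test of the difference between lines called 2310 genes against H929 (15.9%), 1299 higher (8.91%) and 1011 lower (6.94%) in MM1S, and 3018 against OPM2 (20.7%), 1715 higher (11.8%) and 1303 lower (8.94%). With upper quartile scaling the split against OPM2 turned over, to 1381 higher and 1585 lower. The second of these fell to 714 when MM1S and OPM2 were fitted alone, and the first rose to 4080 with MM1S and H929 alone.

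**Figure D4:**
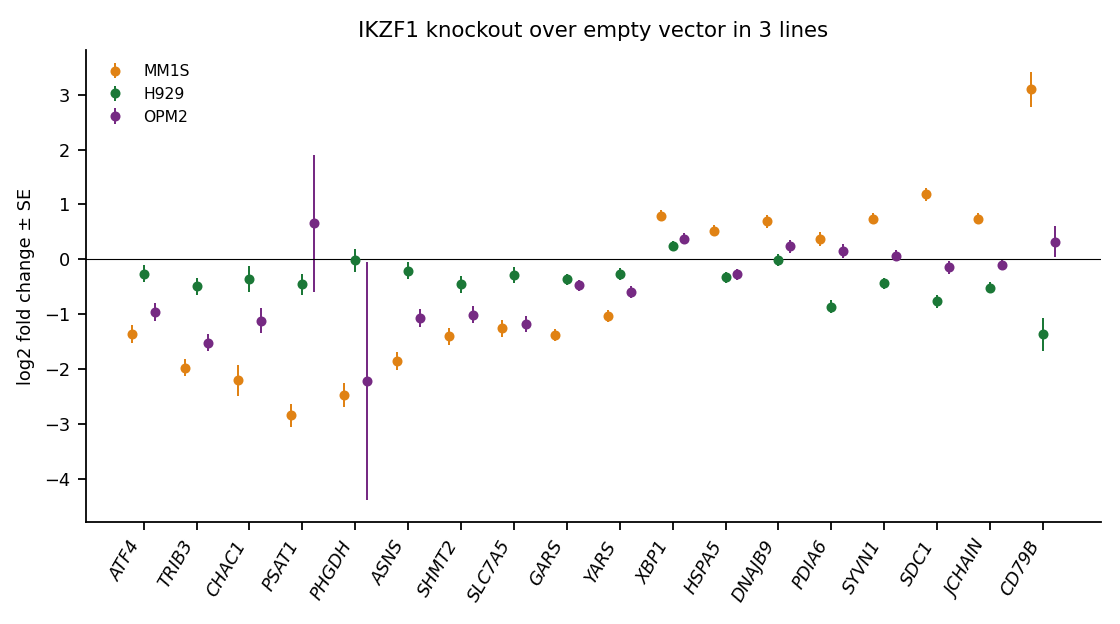
Log2 fold change with its standard error (vertical axis) of 18 genes for the IKZF1 knockout over the empty vector in MM1S (orange), H929 (green) and OPM2 (purple). The ATF4 response genes lie below 0 in MM1S. The ER and plasma cell list members on the right lie above 0 in MM1S, where SDC1, JCHAIN and CD79B are below 0 in H929.

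By list, the difference was called higher in MM1S more often for ER and plasma cell genes than over all genes tested. Over all genes it was higher for 8.91% against H929 and 11.8% against OPM2. The list counts below were not repeated with the lines fitted alone or with upper quartile scaling. In the ER list 2 rose and 5 fell in H929 and 8 rose and 10 fell in OPM2, and the difference was called higher in MM1S for 13 and 11 of the 34 members and lower for none. For the plasma cell list the difference was higher in MM1S for 6 and 10 of 21 and lower for none. SDC1 changed by -0.77 (SE 0.12) in H929 and -0.15 (SE 0.12) in OPM2, and its difference from MM1S was 1.95 (SE 0.18) and 1.33 (SE 0.17) on the log2 scale. For HSPA5 the differences were 0.84 (SE 0.14) and 0.79 (SE 0.14), both called. Interferon-stimulated genes went the other way: 56 of 57 rose in H929, and 41 were called lower in MM1S than in H929. Of the serine and one-carbon genes 12 fell in OPM2 and 2 in H929, with 11 lower in MM1S than in H929 and 6 lower and 3 higher than in OPM2. The tRNA synthetases had 14 lower in OPM2 and 1 in H929.

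Single genes marked the extremes of these differences. BHLHE41, a repressor of the circadian clock, stood at 51.1 and 55.2 CPM against 151 and 167 CPM in MM1S (log2 1.58, SE 0.16) and averaged 22.2 CPM in the empty vector against 0.0386 CPM in the knockout of H929, a difference of 10.48 (SE 0.43, adjusted p = 1.7e-09 in edgeR). NDNF, a secreted neuronal factor gene, rose from 12.3 and 13.3 CPM to 160 and 164 CPM in MM1S and fell in H929 (log2 -6.03, SE 0.35). QPRT differed from OPM2 by 9.10 (SE 0.50), where it averaged 114 CPM in the empty vector and 145 CPM in the knockout. SYNJ2 differed by -6.49 from H929 and -7.50 from OPM2, where it was not called.

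Along the chromosomes, 4 stretches held genes that shifted together. They were found after the fold changes were seen, and no test was made of them. The rule took runs of 41 expressed neighbours (average log2 CPM of at least 2) with a median beyond 0.4 in size on the log2 scale. Of 9712 runs of that length, 141 passed in MM1S, 103 in H929 and 1186 in OPM2, so such shifts were not particular to MM1S. Chromosome 20 (GRCh38, 270863 to 13638932) had a median of -1.03 over 61 expressed genes, 56 of them below 0, and of 78 genes tested there 54 fell and 3 rose. Chromosome 8 from TRPS1 to ASAP1 (115408496 to 130443674) had a median of -0.83 over 38 genes, with 26 of 47 lower and 2 higher. Chromosome 2 from TRIP12 to PDCD1 (229763837 to 241858894) had a median of 0.94 over 57 genes, 54 of them above 0, with 49 of 69 higher and none lower. Chromosome 3 (150408298 to 180989838) was shallower, at 0.37 over 56 genes, with 34 of 88 higher and 3 lower, and includes MME (log2 5.37, against 0.39 for its neighbours). Knockout a and b gave like medians in each stretch, for chromosome 20 -0.93 and -0.97. H929 and OPM2 had medians between -0.21 and 0.30 in the same intervals. The value of 0.30 was that of OPM2 on chromosome 3, near the 0.37 of MM1S. Copy number was not measured, and its part in these shifts was not tested. Outside the stretches 2185 genes rose and 1758 fell, and no list named above changed by more than 2 calls.

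**Figure D5:**
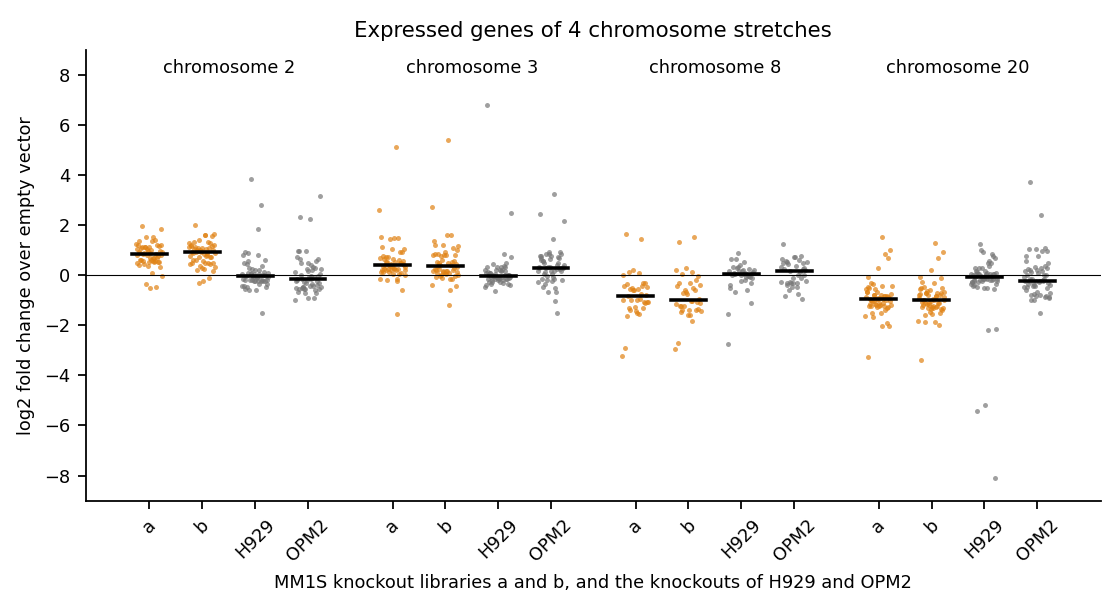
Log2 fold change over the empty vector (vertical axis) of the expressed genes in the 4 chromosome stretches, 1 point a gene and a bar at the median, for MM1S knockout libraries a and b (orange, from CPM with 0.5 added) and the knockouts of H929 and OPM2 (grey). In MM1S the medians lie near 0.9 on chromosome 2 and near -0.9 on chromosomes 8 and 20 in both libraries.

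The knockout libraries differed from each other in a small set of genes. At an average log2 CPM of at least 4, 31 genes were more than 2-fold apart, 25 of them higher in b, and 7 of the 31 were called. SCD, the fatty acid desaturase, was at 608 CPM in a and 1408 CPM in b, against 1545 and 1568 CPM in the controls, and was not called (log2 -0.63, adjusted p = 0.091 in edgeR). INSIG1, which retains the sterol sensor in the ER, was at 573 and 940 CPM against 1368 and 1394 CPM, and the cholesterol exporter ABCA1 at 9.64 and 28.6 CPM against 11.2 and 12.7 CPM. INSIG1 was below both controls in both knockout libraries and was called (log2 -0.87, SE 0.24), a call lost without either empty vector replicate, without knockout a (log2 -0.56) and with the 4 libraries fitted alone. SCD was near the controls in b and lower in a, and ABCA1 near them in a and higher in b. IGKC, a kappa light chain gene that H929 cells express at a mean of 8686 CPM, was at 0.999 and 3.83 CPM in the empty vector, 0.136 CPM in a and 17.6 CPM in b, the last being 0.202% of the H929 level; its part in other results was not tested.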

How the data were processed

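The deposited table of raw counts per gene was made by the authors with Subread and featureCounts on GRCh38 (hg38), per the submitters' processing notes, with no versions or strand setting given. The authors' second table holds log2 FPKM, with the empty vector merged into 1 column per line, per the file headers; it was used only to compare levels between genes. Counts were tested with edgeR 4.0.16 (R 4.3.3, quasi-likelihood, robust) after TMM scaling and filterByExpr. All 18 libraries in 9 groups entered 1 fit with 9 residual degrees of freedom, and CPM values use the TMM-adjusted library sizes. Of 28395 genes, 14571 were tested and 385 had no symbol; counts without a symbol made up 0.0122% to 0.0157% of the MM1S libraries. Calls are Benjamini-Hochberg adjusted p under 0.05 over all genes tested. An exact permutation of 2 libraries against 2 cannot give a p under 0.333. The fit was tested on simulated data.

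The text names the Ikaros and Aiolos genes and CD38; single genes from the 15 strongest calls in each direction (no overlap between groups, minimum average log2 CPM 1); up to 8 called members of a list in each direction with those just outside the threshold; and the 8 strongest differences between lines in each direction; members of the 41 lists that fall outside this were chosen after their values were seen. The comparison and the lists were chosen with earlier results of these data known. A gene with no count in a group is given a floor of 3 counts over the group. Counting intervals are at 95% and cover counting error only. Alternatives used DESeq2 1.42.0 and limma 3.58.1. Promoter sequences come from RefSeq. Some list members are counted but not reported by name here.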

Additional observations from a re-analysis of the deposited data

Results flagged for a closer look

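A small set of genes was called in opposite directions in MM1S and in both other lines, and the differences themselves passed edgeR's quasi-likelihood test. ITGA8, an integrin alpha subunit gene, rose in MM1S (log2 2.57) and fell in H929 (-4.21) and OPM2 (-2.78), so that MM1S differed by 6.78 from H929 and 5.35 from OPM2. IFIH1, the RNA sensor gene, fell in MM1S (log2 -0.84) and rose in H929 (4.52) and OPM2 (1.53), a difference of -5.36 and -2.37. The fall in MM1S lost its call without any 1 MM1S library and without OPM2 empty vector replicate 1 (log2 -0.92 to -0.77). CAPG, an actin filament capping protein gene, fell from 2.94 and 2.18 CPM to 0.475 and 0.662 CPM in MM1S (log2 -2.18) and rose in H929 (1.27) and OPM2 (3.36), a difference of -3.45 and -5.53. Across all genes tested, 32 were opposite in both other lines.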

How the results depend on the processing

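The number of genes called in MM1S (4114) was 7032 with the 4 libraries fitted alone and 1464 when the test was made against a 1.5-fold change. The 4 MM1S libraries and OPM2 empty vector replicate 1 were each left out in turn, and no other library was. The number then ranged from 2322 to 6314, the lowest without empty vector replicate 1 and the highest without OPM2 empty vector replicate 1. The difference from H929 (2310 genes) was 4080 with those lines alone and 1436 to 4306 with 1 of these 5 left out, and the difference from OPM2 (3018 genes) was 714 alone and 1370 to 3058. The cause was not tested. IKZF1 lost its call without any 1 MM1S library (log2 0.78 to 0.87). CD38 stayed called in each alternative run in which it was followed, and it was not followed in the test against a 1.5-fold change. DESeq2 size factors, upper quartile scaling, limma-voom, DESeq2 and both filters gave 3632 to 4333 genes. Of 377 genes followed, none reversed. Without empty vector replicate 1, empty vector replicate 2, knockout a or knockout b, 140, 131, 109 and 132 of them lost their call. DESeq2 size factors and upper quartile scaling put the higher share of calls at 57.9% and 51.7%, against 55.3%. No paired analysis was possible because the numbers in the knockout columns differ from those of the sample titles. A gene with no count in a library can still hold up to 0.176 to 0.248 CPM.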

Other observations

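Other gene groups of MM1S not described above moved as follows. Of 21 cytokine and growth factor receptor genes 5 rose (23.8%, against 15.6% of all genes tested) and 3 fell (14.3%, against 12.6%). Fewer of them rose when any 1 MM1S library was left out. IL6ST (gp130), the signalling chain of the interleukin 6 receptor, rose from 316 and 330 CPM to 627 and 640 CPM (log2 0.97, SE 0.27), and the receptor gene IL21R from 13.9 and 13.4 CPM to 32 and 30.9 CPM. FGFR1 fell from 9.93 and 8.97 CPM to 1.90 and 1.82 CPM (log2 -2.34, SE 0.25). The groups did not overlap in any of these 3 genes, nor in 72.9% of all genes tested. Of 14 KLF factors KLF8 and KLF9 fell (14.3%, against 12.6% of all genes). KLF3 alone rose (7.14%, against 15.6%), from 68.3 and 71.1 CPM to 119 and 132 CPM. S100A10, the annexin partner, fell from 17.4 and 16.6 CPM to 2.38 and 2.48 CPM (log2 -2.81, SE 0.40).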
